A study of Mus musculus with 12 samples.

Results

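Spheroids grown for 48 h from CIDEA KO and WT mouse embryonic stem cells (ESCs) were compared by mRNA sequencing, around the time at which their lumens form. The comparison used 2 KO and 2 WT libraries, which are 4 of the 12 libraries of the study. The other libraries came from the ESCs that spheroids were made from and from spheroids at 24 h, again with 2 libraries per genotype. Of the 17424 genes tested, the 17250 that lie outside chromosome 10 from 31.3 to 63.4 Mb (GRCm38) are described here. In that stretch 49 of 174 genes tested were called at 48 h, all of them lower in KO, with a median log2 fold change of -0.62.

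The WT cells were R1 mouse ESCs, the parental line. KO was subclone 19.7 of R1 cells in which CRISPR-Cas9 had removed the whole *Cidea* locus, so that all KO libraries came from 1 clone and the loss of *Cidea* cannot be told apart from other differences of that clone. ESCs of both genotypes were grown in serum with LIF, a cytokine that holds them in the naive state. Spheroids of both genotypes were grown in growth factor-reduced Matrigel, a basement membrane extract, in serum without LIF. The replicates are described as independent samples, but no source used here ties them to separate days or cultures, so p-values measure the spread between these samples. Spheroids are mixtures of cells, and in such bulk RNA fewer cells with a transcript and less of it per cell cannot be told apart.

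LDs are organelles that store neutral lipids under a single layer of phospholipids. CIDEA sits at contacts between LDs and promotes the transfer of lipid from the smaller to the larger LD, so that few large LDs form. ESCs in Matrigel go through changes of the peri-implantation epiblast: they leave the naive state, polarise into a rosette around a shared apical point, and open a lumen there while E-cadherin and other junction proteins hold their lateral sides together and integrins hold their basal sides to laminin.

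Estimated counts summed to 29.2 to 38.5 M per library at 48 h. Levels are given as counts per 1 M counts (CPM), scaled between libraries by the TMM method, and are compared between libraries and not between genes. A floor of 3 counts put the limit of detection at 0.0784 to 0.1035 CPM at 48 h, which covers counting error only. Genes were called at a Benjamini-Hochberg adjusted p under 0.05 across the 17424 genes, from the quasi-likelihood test of edgeR. A log2 fold change is KO against WT and is followed by its SE, from 2 libraries in each group and a spread shared by all 12. Replicates differed by more than sampling noise (chi-square per degree of freedom 14.88 in WT and 17.78 in KO at 48 h), and each was counted as a sample. This excess does not show that they were separate cultures. One library, replicate 1 of KO spheroids at 24 h, held 15173 genes at equal depth while the others held 17322 to 19288. It enters the estimate of spread used at 48 h, and values without it are given below.

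The markers of pluripotent epiblast-like cells were present in all 4 libraries at 48 h, with *Pou5f1* at 877 to 1120 CPM, *Sox2* at 333 to 435, *Nanog* at 92.3 to 110, *Sall4* at 235 to 283, *Utf1* at 354 to 397 and *Epcam* at 177 to 206. *Cidea* itself was low at this time. It was at 0.678 and 0.589 CPM in the WT libraries at 48 h (20 and 21 counts) and at 0 in both KO libraries. WT levels had been 2.93 and 2.25 CPM in ESCs and 3.48 and 1.29 CPM at 24 h, and every KO library of the study held 0. At 48 h *Cidea* was at least 7.04-fold lower in KO, with the mean of the WT libraries set against the floor of 3 counts per library. The adjusted p of 0.0921 missed the threshold at these counts, and *Cidea* passed it in ESCs (0.0165) and at 24 h (0.0151).

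Outside the stretch 68 genes were called at 48 h. In CIDEA KO spheroids 34 genes were higher (0.197% of the 17250 tested) and 34 were lower (0.197%). The CPM ranges of the 2 groups did not overlap for any of the 68, a property that the call itself favours. Most changes were small. Of the higher genes, 3 rose by 2-fold or more and 23 by less than 1.5-fold, and the median of their log2 fold changes was 0.48. Of the lower genes, 7 fell by 2-fold or more and 14 by less than 1.5-fold, and the median was -0.60. Over all 17250 genes the median was 0.002 and 50.3% were above 0. At an unadjusted p under 0.05, 4.03% of them were higher and 3.24% lower. These shares and the 0.197% called in each direction are the background for all counts in gene lists at 48 h below.

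The number of calls moved with the settings. DESeq2 called 80 higher and 91 lower genes, which included all 68. Without replicate 1 of KO spheroids at 24 h, edgeR called 77 and 116. With average transcript lengths as offsets it called 1 and 8, and limma on log2(TPM + 1) called 1 and 15. Without KO replicate 1 at 48 h, 15 higher and 12 lower genes were called, of which 10 and 12 were among the 68. Without KO replicate 2 there were 9 and 23, with 8 and 12 of the 68. Without WT replicate 1 there were 6 and 16, with 3 and 11 of the 68, and without WT replicate 2 there were 16 and 11, with 6 and 11 of the 68. All 68 genes kept their direction in every alternative that gave a value. Since their groups did not overlap, leaving out a library could hardly change a direction, and the other alternatives used the same libraries. The kept directions are therefore no separate support. *Grb10*, *Mt1*, *Mt2*, *Ldhb*, *Tdh* and *Nnat* were called in every alternative, and each of the other genes lost its call in 2 or more.

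**Figure D1:**
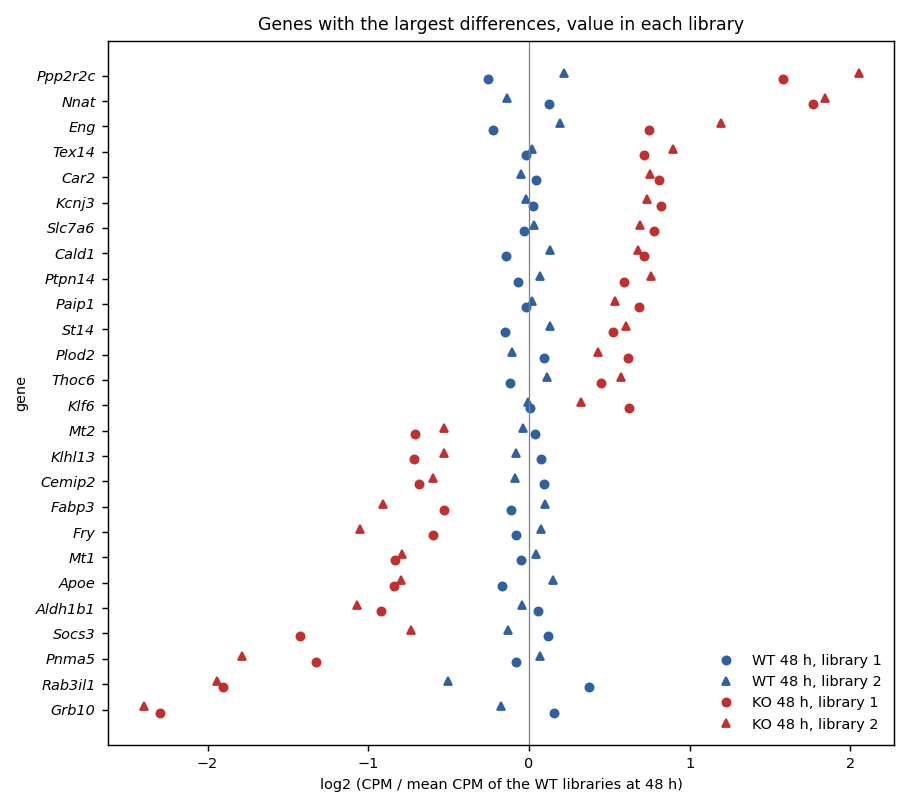
Levels of 26 named genes in the 4 spheroid libraries at 48 h, as log2 of CPM over the mean CPM of the WT libraries, with 1 point per library (blue, WT; red, KO; circles, library 1; triangles, library 2). Only called genes whose groups did not overlap were eligible, so the KO points lie on 1 side of both WT points for every gene. The genes run from *Ppp2r2c* and *Nnat* at the top, which were higher in KO, to *Grb10* at the bottom, which was lower.

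The imprinted genes held the called gene with the smallest p outside the stretch and a gene among the largest rises. Imprinted genes are expressed from the copy of 1 parent. Of 41 tested, 2 rose and 2 fell, against 0.197% of all genes in each direction. *Grb10* (chr11:11930508-12038683, GRCm38, like all positions below) encodes an adaptor protein that restrains signalling from the insulin receptor and growth. Its level was 80.7 and 64.4 CPM in WT and 14.8 and 13.8 CPM in KO at 48 h. Both KO libraries were far under both WT libraries, and the log2 fold change was -2.34 ± 0.13 (adjusted p = 2.5e-09). The same held in ESCs, with 124 and 138 CPM in WT against 17.9 and 20.7 CPM in KO, and at 24 h, with 92.8 and 95.2 CPM against 18.1 and 17.0 CPM.

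*Nnat* (chr2:157560078-157562522), which encodes a small proteolipid of the endoplasmic reticulum named neuronatin, moved the other way. It was at 8.45 and 7.05 CPM in WT and at 26.4 and 27.8 CPM in KO, a log2 fold change of 1.81 ± 0.26 (adjusted p = 0.00106). *Nnat* also rose at 24 h (1.15) and in ESCs (1.83). *Gnas*, whose main product is the stimulatory G protein subunit that couples receptors to cyclic AMP, was at 161 and 172 CPM in WT and 215 and 212 CPM in KO (0.36 ± 0.071, adjusted p = 0.0187). *Peg3*, a zinc finger gene expressed from the paternal copy, was at 135 and 141 CPM in WT and 101 and 97.9 CPM in KO (-0.47 ± 0.10, adjusted p = 0.0388). Both kept their direction and were called at all 3 times, but at 48 h each kept its call in only 8 of 15 alternatives. The other imprinted genes had no common direction: the median log2 fold change of all 41 was 0.00, with 20 above 0 and 21 below, and among those not called *Mest* had the smallest p (-0.31, adjusted p = 0.0921).

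The metallothionein genes *Mt1* and *Mt2* fell together. They encode small cysteine-rich proteins that bind zinc and copper, and they lie next to each other on chromosome 8 (*Mt2* at chr8:94172664-94173568, *Mt1* at chr8:94179082-94180327). *Mt1* was at 163 and 174 CPM in WT and at 94.9 and 97.7 CPM in KO (-0.81 ± 0.091, adjusted p = 1.1e-04). *Mt2* was at 296 and 281 CPM in WT and at 177 and 200 CPM in KO (-0.61 ± 0.079, adjusted p = 3.9e-04). The groups did not overlap for either gene. Both were also lower in KO ESCs (-0.63 and -0.43) and at 24 h (-0.99 and -0.78), and were called there.

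Metallothionein genes are known to be switched on through metal response elements, which the zinc sensor MTF-1 binds. The 250 bases before each gene's RefSeq start (GRCm38.p6) are shown because the pair moved together, with capitals marking each match to TGCACNC or TGCGCNC on either strand, the core letters of that element. *Mt1* is read from chr8:94178839-94179088 and *Mt2* from chr8:94172368-94172617, both on the plus strand. The RefSeq starts differ from the gene positions given above. The *Mt1* bases end inside its gene position, and the *Mt2* bases end short of its own.
Mt1: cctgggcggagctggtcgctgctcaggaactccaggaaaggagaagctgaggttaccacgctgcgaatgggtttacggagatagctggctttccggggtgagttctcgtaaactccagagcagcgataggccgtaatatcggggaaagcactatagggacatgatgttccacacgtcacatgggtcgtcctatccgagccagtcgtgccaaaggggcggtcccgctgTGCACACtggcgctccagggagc
Mt2: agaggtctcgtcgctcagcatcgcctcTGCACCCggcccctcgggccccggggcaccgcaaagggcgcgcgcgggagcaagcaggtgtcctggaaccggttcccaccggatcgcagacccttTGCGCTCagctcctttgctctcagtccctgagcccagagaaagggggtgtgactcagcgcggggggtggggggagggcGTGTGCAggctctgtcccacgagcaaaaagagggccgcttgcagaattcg
In the window of 250 bases before and 50 bases after the start, *Mt1* held 3 matches, 1 starting 23 bases before the start and the others 2 and 20 bases after it. *Mt2* held 4, starting 223, 128 and 50 bases before the start and 4 bases after it. Of the 32851 mouse promoter windows of the same length, 25.7% held at least 1 match and 1.97% held 3 or more. These are letter matches and not measured binding sites.

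Genes of the naive state were mostly below WT in KO at 48 h. Of 18 naive pluripotency genes tested, 2 fell, *Tdh* and *Tcl1*, and none rose, against 0.197% of all genes in each direction. *Tdh* encodes threonine dehydrogenase, an enzyme of threonine breakdown that mouse ESCs depend on. It was at 285 and 279 CPM in WT and at 210 CPM in both KO libraries (-0.43 ± 0.062, adjusted p = 0.00115). *Tcl1*, a co-activator of the kinase AKT, was at 17.7 and 19.9 CPM in WT and at 11.6 and 13.7 CPM in KO (-0.58 ± 0.12, adjusted p = 0.0239). Neither was called in ESCs (0.06 and -0.01) or at 24 h (-0.18 and -0.16).

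At an unadjusted p under 0.05, 7 of the 18 were lower and 1 was higher, against 3.24% lower and 4.03% higher among all 17250 genes. They included *Esrrb*, an orphan nuclear receptor of the naive network, at 179 and 189 CPM in WT and 143 and 162 CPM in KO (-0.27, adjusted p = 0.101), *Tfcp2l1* (-0.44, adjusted p = 0.220) and *Tbx3* (-0.48, adjusted p = 0.269). The median log2 fold change of the 18 was -0.21, with 3 above 0 and 15 below, and it lay between -0.30 and -0.13 over the alternatives. Without WT replicate 2 at 48 h 4 genes were lower at an unadjusted p under 0.05, with a median of -0.14. Without KO replicate 1 or WT replicate 2, 1 gene of the list was called, and without KO replicate 2, 4 were. In ESCs and at 24 h the median was 0.13 and 0.03. The core factor *Pou5f1* was at 877 and 956 CPM in WT and 979 and 1120 CPM in KO (0.19, adjusted p = 0.331).

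*Socs3*, a feedback inhibitor of LIF and STAT3 signalling, also fell. In WT it dropped from 144 and 156 CPM in ESCs to 12.1 and 10.1 CPM at 24 h, when LIF was gone, and to 3.93 and 3.31 CPM at 48 h. In KO it went from 158 and 213 CPM to 12.2 and 11.6 CPM and then to 1.35 and 2.18 CPM. The 2 genotypes thus differed at 48 h (-1.06 ± 0.23, adjusted p = 0.0440), where counts were lowest, and were not called in ESCs (0.31) or at 24 h (0.10). *Tcf15*, a bHLH factor known from cells that leave the naive state, was at 52.5 and 67.0 CPM in WT and 43.0 and 36.0 CPM in KO (-0.60 ± 0.13, adjusted p = 0.0454) and had been 0.02 at 24 h.

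No gene of the formative and primed list was called among 25 tested outside the stretch, with a median of 0.01. Of these 14 were above 0 and 11 below, and 3 were higher and 1 lower at an unadjusted p under 0.05. The genes named next do not include the 3 higher ones. At 24 h the median was -0.22, with 1 higher and 10 lower at that threshold, and in ESCs it was -0.03, with 3 and 8. The share of all genes at those times was not counted. *Otx2*, a factor of primed cells, was at 180 and 192 CPM in WT and 206 and 190 CPM in KO, with overlapping groups and a 95% interval of -0.10 to 0.28 on the log2 scale. *Pou3f1* was at 133 and 147 CPM in WT and 115 and 104 CPM in KO (-0.35, adjusted p = 0.454). *Fgf5*, a classical marker of the primed epiblast, was at 58.2 and 56.8 CPM in WT and 49.0 and 41.6 CPM in KO (-0.34, adjusted p = 0.966).

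**Figure D2:**
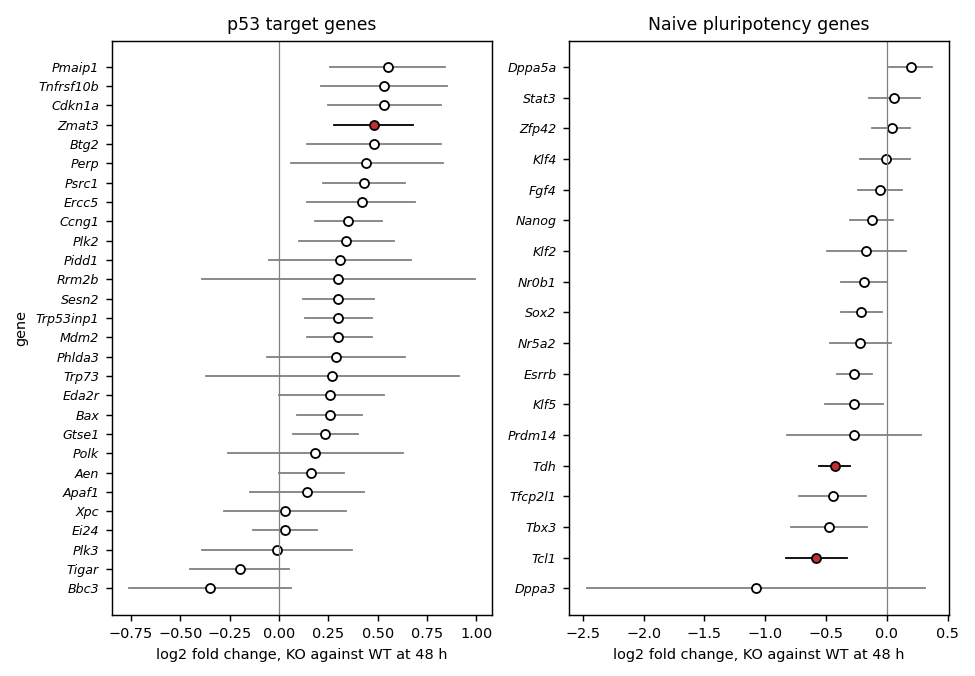
Log2 fold change (KO against WT at 48 h) with its 95% interval for 28 p53 target genes and 18 naive pluripotency genes whose mean CPM in the 2 groups sum to at least 4, with called genes filled. Of the p53 targets 25 points lie above 0 and only *Zmat3* is filled; of the naive genes 15 points lie below 0 and *Tdh* and *Tcl1* are filled.

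Of 32 tight and adherens junction genes tested, 2 rose, against 0.197% of all genes, and none fell. At an unadjusted p under 0.05, 3 were higher and 1 lower, against 4.03% and 3.24% of all genes, and neither call held when any 1 of the 4 libraries was left out. *F11r*, which encodes the tight junction protein JAM-A, was at 60.9 and 62.5 CPM in WT and at 81.8 and 87.6 CPM in KO (0.46 ± 0.099, adjusted p = 0.0363). Its value lay between 0.40 and 0.50 with 1 library left out. It was not called before, with log2 fold changes of 0.00 in ESCs and 0.02 at 24 h. *Cdh1* (chr8:106603351-106670246), which encodes E-cadherin, the adhesion protein of epithelial cells, was at 782 and 777 CPM in WT and at 936 and 923 CPM in KO. This was a small rise of 0.25 ± 0.058 (adjusted p = 0.0496), at the edge of the threshold and called in 2 of 15 alternatives, and the value stayed between 0.23 and 0.27 in all of them. *Ctnnb1*, which encodes its partner β-catenin, was at 846 and 807 CPM in WT and 933 and 960 CPM in KO (0.20, adjusted p = 0.220), and *Pkp2*, a desmosome gene, was at 94.7 and 94.5 CPM against 73.9 CPM in both KO libraries (-0.36, adjusted p = 0.268). The median of the 32 was 0.07.

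Of 32 basement membrane and integrin genes, 1 rose, against 0.197% of all genes. *Itgb1*, the β1 subunit shared by most laminin-binding integrins, was at 261 and 260 CPM in WT and at 355 and 318 CPM in KO (0.37 ± 0.071, adjusted p = 0.0160), and it had also risen at 24 h (0.34). The laminin chain gene *Lamb2* was at 14.3 and 18.2 CPM in WT and 23.4 CPM in both KO libraries (0.52, adjusted p = 0.143). *Eng*, *St14*, *Ptpn14* and *Cald1* are on no list and were named for the rank of their rises. *Eng* encodes endoglin, a co-receptor for ligands of the BMP and TGF-β family, and was at 28.4 and 38.0 CPM in WT and at 55.8 and 76.0 CPM in KO (0.99 ± 0.16, adjusted p = 0.00463). *St14* encodes the membrane serine protease matriptase and rose by 0.56 ± 0.12 (adjusted p = 0.0299). *Ptpn14*, a tyrosine phosphatase found at cell junctions, rose by 0.68 ± 0.14 (adjusted p = 0.0291), and *Cald1*, the actin-binding protein caldesmon, by 0.69 ± 0.13 (adjusted p = 0.0160).

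The genes of apical polarity had no call. Among 28 tested, 3 were higher and 0 lower at an unadjusted p under 0.05, and the median was -0.01. *Podxl*, which encodes the anti-adhesive sialomucin podocalyxin of the lumen-facing membrane, was at 136 and 134 CPM in WT and 135 and 132 CPM in KO, with overlapping groups and a 95% interval of -0.21 to 0.18. *Pard3*, a scaffold of the apical PAR complex, was at 103 and 105 CPM in WT and 102 and 108 CPM in KO, with an interval of -0.16 to 0.18. Both intervals stay within a change of 1.5-fold in either direction. The 3 with an unadjusted p under 0.05 were *Ezr*, which links membranes to actin at the apical side (265 and 302 CPM in WT, 344 and 362 CPM in KO, 0.31, adjusted p = 0.0694), the polarity GTPase gene *Cdc42* (0.26, adjusted p = 0.163) and *Prom1* (0.51, adjusted p = 0.357).

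Of 32 genes of apical trafficking and the exocyst, the complex that tethers vesicles to the membrane, none was called, with 3 higher and 1 lower at an unadjusted p under 0.05. *Exoc4* had the smallest p, at 106 and 102 CPM in WT and 126 and 138 CPM in KO (0.35, adjusted p = 0.0541). The 29 actomyosin genes had no call. At an unadjusted p under 0.05, 4 were higher and 4 lower, against 4.03% and 3.24% of all genes. *Shroom3*, which drives apical constriction, was at 43.7 and 39.8 CPM in WT and 23.7 and 30.2 CPM in KO (-0.63, adjusted p = 0.0553), and *Actb* at 887 and 856 CPM against 1000 and 1110 CPM (0.28, adjusted p = 0.0541). The median over each of these lists was 0.03 and 0.01. *Golga2*, a Golgi matrix gene, was at 44.6 and 49.9 CPM in WT and 44.2 and 44.3 CPM in KO (95% interval -0.34 to 0.15).

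The transcripts of LD proteins and of triglyceride storage had no call at 48 h. Of 27 tested, 1 was higher and 0 were lower at an unadjusted p under 0.05, and the median was -0.03. *Plin2*, which encodes the coat protein perilipin 2 of LDs, was at 7.84 and 9.01 CPM in WT and at 8.31 and 8.35 CPM in KO, with overlapping groups and an interval of -0.50 to 0.46. *Plin3* was at 78.7 and 75.1 CPM in WT and 74.6 and 79.4 CPM in KO. *Pnpla2*, the adipose triglyceride lipase that starts LD lipolysis, was at 36.0 and 34.6 CPM in WT and 29.6 and 37.1 CPM in KO (interval -0.40 to 0.23). The 1 gene with an unadjusted p under 0.05 was *Acsl4*, an acyl-CoA synthetase of polyunsaturated fatty acids, at 99.2 and 86.0 CPM in WT and 130 and 104 CPM in KO (0.34, adjusted p = 0.360). *Lipa*, the lysosomal acid lipase, was at 13.2 and 9.09 CPM in WT and 8.74 and 8.94 CPM in KO (interval -0.91 to 0.24), which leaves room for a change of more than 1.5-fold.

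Among 28 genes of fatty acid oxidation, *Cpt1a* fell and was the only call, against 0.197% of all genes called lower. It encodes the enzyme that admits long-chain fatty acids to mitochondria for oxidation. It was at 47.6 and 46.2 CPM in WT and at 32.1 and 31.1 CPM in KO (-0.57 ± 0.12, adjusted p = 0.0310), and it kept its call in 8 of 15 alternatives. Of the 28, 4 were higher and 2 lower at an unadjusted p under 0.05, and the median was 0.10 with 18 above 0. *Fabp3*, a carrier of fatty acids in the cytosol that is on no list, was at 37.9 and 43.8 CPM in WT and at 28.4 and 21.8 CPM in KO (-0.70 ± 0.14, adjusted p = 0.0310).

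*Apoe* (chr7:19696109-19699188) encodes the lipid carrier apolipoprotein E. It was at 214 and 266 CPM in WT and at 134 and 138 CPM in KO (-0.82 ± 0.091, adjusted p = 1.5e-04) and kept its call in 13 of 15 alternatives. Its level had been higher in ESCs, with 935 and 1010 CPM in WT and 832 and 909 CPM in KO (-0.16), and at 24 h it was at 189 and 186 CPM against 98.5 and 113 CPM. *Apoe* is also on the list of primitive endoderm markers, of which 19 lie outside the stretch. Their sum was 422 to 479 CPM in WT and 309 to 312 CPM in KO with *Apoe*, and 208 to 214 against 174 to 176 CPM without it. The defining endoderm factors were low in all 4 libraries: *Gata4* at 2.84 to 4.85 CPM, *Gata6* at 0.212 to 1.18, *Sox17* at 0.339 to 0.624 and *Sox7* at 0.505 to 0.901 CPM. Of the 19 markers, 8 were under 1 CPM in all 4 libraries, 2 of them at 0. Of the 15 tested, 0 were higher and 1 was lower at an unadjusted p under 0.05, against 4.03% and 3.24% of all genes. *Apoe* was the only call. The part of endoderm-like cells in the fall of *Apoe* was not tested.

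Cholesterol and fatty acid synthesis genes had no call among 37 tested, with 0 higher and 1 lower at an unadjusted p under 0.05 and a median of 0.07. The 1 was *Scd2*, a desaturase that makes monounsaturated fatty acids, at 574 and 521 CPM in WT and 525 and 448 CPM in KO (-0.17, adjusted p = 0.576). Of 42 autophagy and lysosome genes none was called, with a median of -0.01. At an unadjusted p under 0.05, 2 were higher and 8 lower, against 4.03% and 3.24% of all genes. Without WT replicate 1 at 48 h 3 were lower. *Tfeb*, the master regulator of lysosome genes, was at 9.53 and 9.24 CPM in WT and 4.70 and 6.59 CPM in KO (-0.74, adjusted p = 0.0666). The lysosomal hydrolase genes *Hexa* (-0.49, adjusted p = 0.268) and *Ctsl* (-0.27, adjusted p = 0.284) were next. *Man2b1*, a lysosomal mannosidase on chromosome 8 that is on no list and so not among the 42, was called higher (0.43 ± 0.093, adjusted p = 0.0339). *Atg5*, a gene of autophagosome formation, lies in the chromosome 10 stretch, where lower values were the rule, and was at 42.9 and 36.2 CPM in WT and 28.0 and 23.3 CPM in KO.

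In glycolysis 1 of 35 genes tested outside the stretch fell, against 0.197% of all genes. *Hk1* of this list lies in the chromosome 10 stretch, was left out of the 35 and was called lower in KO (-0.86, adjusted p = 0.00397). *Ldhb* (chr6:142490249-142507957), the lactate dehydrogenase subunit that favours the use of lactate, was at 200 CPM in both WT libraries and at 134 and 133 CPM in KO (-0.58 ± 0.08, adjusted p = 9.2e-04). It was lower at all times and in every alternative. The other subunit, *Ldha*, which favours making lactate, was at 1040 and 1020 CPM in WT and 1240 and 1260 CPM in KO (0.28, adjusted p = 0.0887). The list had 2 higher and 4 lower at an unadjusted p under 0.05 and a median of 0.00. *Car2*, a cytosolic carbonic anhydrase (chr3:14886273-14900770), was among the clearest rises, at 189 and 177 CPM in WT and at 320 and 309 CPM in KO (0.78 ± 0.11, adjusted p = 0.00196). It climbed with differentiation in both genotypes, from 23.9 and 29.5 CPM in WT ESCs and 53.8 and 40.3 CPM in KO ESCs, and was higher in KO at each time.

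The p53 target genes were mostly above WT in KO. Of 31 genes tested outside the stretch, *Zmat3* rose and none fell, against 0.197% of all genes in each direction. *Zmat3*, an RNA-binding protein induced by p53, was at 91.7 and 92.5 CPM in WT and at 122 and 134 CPM in KO (0.48 ± 0.096, adjusted p = 0.0221), and it had also risen at 24 h (0.52). It lost its call when any 1 of the 4 libraries was left out, with values of 0.41 to 0.54. At an unadjusted p under 0.05, 15 of the 31 were higher and 0 lower, against the 4.03% and 3.24% among all genes. Next by p were *Ccng1*, at 470 and 448 CPM in WT and 589 and 579 CPM in KO (0.35, adjusted p = 0.0518), *Psrc1* (0.43, adjusted p = 0.0580), *Pmaip1*, which encodes the cell death protein NOXA (0.55, adjusted p = 0.0859), and *Cdkn1a*, which encodes the cell cycle inhibitor p21 (0.53, adjusted p = 0.0921).

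The median of the 31 was 0.29, with 27 above 0, and it lay between 0.20 and 0.33 over the alternatives, in which 11 to 18 genes were higher at an unadjusted p under 0.05. At 24 h the median was 0.34 with 17 higher, and in ESCs 0.13 with 7 higher. The share of all genes at those times was not counted. *Sesn1* and *Ddit4* lie in the chromosome 10 stretch and were left out. They were lower in KO, by -0.59 and -0.46. The Bcl2 family of cell death regulators had no call among 18, with 3 higher and 0 lower at an unadjusted p under 0.05, of which *Pmaip1* and *Bax* are on the p53 list too, and a median of 0.05. *Ccnd1*, the G1 cyclin D1, rose from 173 and 197 CPM in WT to 242 and 261 CPM in KO (0.44 ± 0.08, adjusted p = 0.00953). It was the only call among 31 Wnt target genes, whose median was -0.07 with 1 higher and 0 lower at an unadjusted p under 0.05, and *Axin2*, the usual reporter of that pathway, was at 34.3 and 35.7 CPM in WT and 28.0 and 30.6 CPM in KO (-0.26, adjusted p = 0.758).

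Amino acid transport and stress genes were mixed. *Slc7a6* and *Slc7a1*, which carry basic amino acids across the membrane, both rose. *Slc7a6* was at 51.7 and 54.1 CPM in WT and at 90.5 and 85.4 CPM in KO (0.73 ± 0.13, adjusted p = 0.00540), and *Slc7a1* at 47.8 and 48.3 CPM in WT and at 60.9 and 73.0 CPM in KO (0.48 ± 0.10, adjusted p = 0.0299). *Hmox1*, the haem-degrading enzyme induced by oxidative stress, rose by 0.44 ± 0.091 (adjusted p = 0.0289) and *Klf6*, the 1 call among 21 immediate early genes (median -0.09), by 0.48 ± 0.10 (adjusted p = 0.0377). Of 35 genes of the integrated stress and unfolded protein responses none was called. At an unadjusted p under 0.05, 10 were higher and 2 lower, against 4.03% and 3.24% of all genes, and the median was 0.13. In ESCs 21 were higher and 1 lower (median 0.29), and at 24 h 6 were higher and 7 lower (median 0.00). The share of all genes at those times was not counted. At 48 h, over the alternatives 3 to 10 were higher, with 5 without KO replicate 2 and 6 without either WT replicate at 48 h. *Atf4*, the transcription factor at the centre of that response, was at 74.6 and 79.1 CPM in WT and 94.2 and 91.0 CPM in KO (0.27, adjusted p = 0.235), and its target *Chac1* was at 4.07 and 2.64 CPM against 1.43 and 1.35 CPM (-1.26, adjusted p = 0.269).

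Signals between cells showed few calls. No gene was called among 29 of the Nodal and BMP pathways outside the stretch (median 0.01) or among 26 of FGF signalling and its ERK feedback (median -0.07). *Nodal* itself lies in the chromosome 10 stretch and is not among the 29. It was called lower in KO at 48 h (-0.72, adjusted p = 0.019) and in ESCs (-0.77). At an unadjusted p under 0.05, 4 of the 29 were higher and 4 lower, and 2 of the 26 were higher and 1 lower. Among all genes 4.03% were higher and 3.24% lower. *Lefty2*, a secreted inhibitor of Nodal, was at 153 and 150 CPM in WT and 106 and 84.0 CPM in KO (-0.67, adjusted p = 0.144). *Bmpr1a* (0.35, adjusted p = 0.0892) and the BMP target *Id1* (0.43, adjusted p = 0.245) were above 0. *Ptch1*, the Hedgehog receptor and a target of that pathway, was on no list and fell, from 86.0 and 93.4 CPM in WT to 68.8 and 58.2 CPM in KO (-0.50 ± 0.11, adjusted p = 0.0412), as it had at the other times. *Trh*, the precursor of a small releasing hormone that mouse ESCs express, was at 265 and 286 CPM in WT and 218 and 185 CPM in KO (-0.45 ± 0.076, adjusted p = 0.00451). The interferon and antigen presentation list had no call among 34, with 3 higher and 2 lower and a median of -0.19, and *H2-D1* was its smallest p (0.62, adjusted p = 0.0520).

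Among the remaining ranked genes, *Ppp2r2c*, a regulatory subunit of phosphatase 2A, was at 1.93 and 2.67 CPM in WT and at 6.88 and 9.53 CPM in KO (1.83 ± 0.37, adjusted p = 0.0239), and at 24 h its value had been -0.38. *Tex14*, a gene of germ cell bridges, rose by 0.81 ± 0.14, the potassium channel gene *Kcnj3* by 0.78 ± 0.17, *Paip1*, a translation factor, by 0.61 ± 0.14, the collagen lysyl hydroxylase *Plod2* by 0.53 ± 0.10, and *Thoc6*, a subunit of the mRNA export complex, by 0.51 ± 0.10. On the lower side *Rab3il1*, an exchange factor for Rab GTPases, was at 6.55 and 3.57 CPM in WT and at 1.35 and 1.32 CPM in KO (-1.91 ± 0.39, adjusted p = 0.0239). *Pnma5* was at 12.1 and 13.4 CPM in WT and 5.10 and 3.71 CPM in KO (-1.53 ± 0.30), and *Aldh1b1*, a mitochondrial aldehyde dehydrogenase, at 13.8 and 12.9 CPM against 7.01 and 6.34 CPM (-1.0 ± 0.23). *Fry* (-0.80 ± 0.18), *Cemip2*, a membrane protein of hyaluronan turnover (-0.65 ± 0.11), and *Klhl13*, an adaptor of a ubiquitin ligase (-0.62 ± 0.11), fell as well.

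Another 19 calls had log2 fold changes between -0.61 and 0.48. On the higher side were the lipid phosphatase gene *Inpp5d* (0.48), *Mcm3ap*, which acts in mRNA export (0.44), the RNA helicase *Ddx19b* (0.46), *Spcs3*, a signal peptidase subunit (0.40), the cytoskeletal genes *Sept11* (0.36) and *Tuba1a* (0.28), *Cyb5b*, a cytochrome of the outer mitochondrial membrane (0.30), the aldose reductase *Akr1b3* (0.29), *Ash2l*, a subunit of histone H3 lysine 4 methyltransferases (0.28), and the histone variant gene *H3f3b* (0.27). On the lower side were *Ttyh3* (-0.61), *Fxyd6*, a regulator of the sodium pump (-0.59), the glycosyltransferase *B3gnt2* (-0.59), the Rab11 effector *Rab11fip4* (-0.57), *Ptgr1*, a prostaglandin reductase (-0.54), *Tmem72* (-0.51), *Abcc4*, an exporter of cyclic nucleotides and prostanoids (-0.48), *Sh3d19* (-0.45) and the elongation factor *Tcea3* (-0.45).

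Gene models without an assigned name were among the largest folds and are uncertain, since reads of near-identical copies are divided between them by the quantifier. *Gm10718*, *Gm10717* and *Gm10715*, which lie within a short stretch at the start of chromosome 9 and were singled out after their values were seen, were all lower in KO. *Gm10718* was at 36.6 and 36.9 CPM in WT and at 0 and 0.312 CPM in KO, *Gm10717* at 6.68 and 4.13 CPM against 0 and 0.104 CPM, and *Gm10715* at 1.32 and 2.33 CPM against 0 in both, at least 20.3-fold lower. *Gm7332*, on chromosome 5, was at 0 in both WT libraries and at 5.92 and 6.03 CPM in KO, at least 63.0-fold higher. It went the opposite way at 24 h, where both KO libraries were at 0 and WT libraries were at 3.09 and 0.534 CPM. *Gm47102* (-0.65 ± 0.13) and *Gm48415* (-0.56 ± 0.12) were lower too.

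Genes of other lineages and cell states had no call apart from *Apoe*. Sums over all listed genes, tested or not, were 111 to 124 CPM in WT and 107 to 108 CPM in KO for 19 neural genes, 41.9 to 43.5 against 37.0 to 46.5 CPM for 23 mesoderm and endoderm genes, 91.6 to 113 against 103 to 113 CPM for 18 trophoblast markers, and 51.6 to 54.5 against 44.4 to 46.8 CPM for 18 fibroblast markers. Of these 13, 21, 15 and 13 were tested, with between 0 and 2 genes per list in either direction at an unadjusted p under 0.05. Of the defining fibroblast genes, *Col1a1* was at 2.98 to 5.60 CPM, *Col1a2* at 0.814 to 1.39 and *Pdgfra* at 0.611 to 1.74 CPM with overlapping groups, while *Thy1* was at 15.9 and 18.9 CPM in WT and 9.11 and 11 CPM in KO, without overlap. Of the trophoblast factors, *Eomes* was at 19 to 22.3 CPM and *Elf5* at 0.337 to 0.678 CPM with overlapping groups, and *Cdx2* was at 1.02 and 1.24 CPM in WT and 1.59 and 1.39 CPM in KO, without overlap. Of the neural factors, *Sox1* was at 1.97 and 2.84 CPM in WT and 4.12 and 4.09 CPM in KO, without overlap, and *Pax6* at 3.85 to 6.19 CPM. Of the mesoderm and endoderm factors, *T* was at 2.68 and 2.55 CPM in WT and 2.02 and 2.43 CPM in KO, *Mixl1* at 0.0797 to 1.46 CPM and *Foxa2* at 0 to 0.112 CPM. The share of all genes whose groups do not overlap was not counted. The lack of overlap in *Thy1*, *Cdx2* and *Sox1*, none of them called, is therefore no measure of a difference. Germline genes silenced by DNA methylation (25 tested, 1 higher and 0 lower), histone genes (25 tested, 1 higher and 0 lower) and the DNA methylation machinery (15 tested, 2 higher and 0 lower) had no call either.

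The 2-cell-like state is a rare state of ESC cultures marked by *Zscan4* genes, and the sum of its transcripts was lower in both KO libraries than in both WT libraries. Without *Eif1a*, a gene that all cells express, the 22 genes summed to 14.2 to 16.4 CPM in WT (483 to 505 counts) and to 3.57 to 3.72 CPM in KO (103 to 140 counts). Of these 22, 15 were under 1 CPM in all 4 libraries, 5 of them at 0. *Zscan4f* was at 3.46 and 1.77 CPM in WT and 0.106 and 0.520 CPM in KO (adjusted p = 0.744), and *Zscan4c* at 1.05 and 3.26 CPM against 0 in both (adjusted p = 0.158). None was called. Of 15 tested, 0 were higher and 2 lower at an unadjusted p under 0.05, against 4.03% and 3.24% of all genes. Reads of the near-identical *Zscan4* copies cannot be assigned with certainty.

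The 48 h differences were compared with those in ESCs and at 24 h, which come from other libraries of the same clone. Of the 34 higher genes, 31 were above 0 at 24 h (91.2%) and 30 in ESCs (88.2%), while among all genes above 0 at 48 h 55.3% and 57.0% were. Of the 34 lower genes, 32 were below 0 at 24 h (94.1%) and 31 in ESCs (91.2%), against 60.7% and 54.5%. The higher genes had a median of 0.48 at 48 h, 0.31 at 24 h and 0.22 in ESCs, and the lower genes of -0.60, -0.62 and -0.43. Of the higher genes 13 were also called at 24 h, where 0.452% of all genes were called higher, and 9 in ESCs, where 0.278% were. Of the lower genes 20 were also called at 24 h (0.684% of all genes called lower) and 18 in ESCs (0.713%). Without replicate 1 of KO spheroids at 24 h, 10 and 16 were also called at 24 h, and 32 and 33 kept their sign.

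Of the 68 genes, 22 were called at all 3 times, including *Grb10*, *Nnat*, *Mt1*, *Mt2*, *Ldhb*, *Car2*, *Peg3*, *Gnas* and *Ptch1*. A further 18 higher and 11 lower genes were called in neither direction at the other times, among them *F11r*, *Cdh1*, *Eng*, *Slc7a6*, *Ccnd1*, *Tuba1a*, *Cpt1a*, *Tdh*, *Tcl1*, *Tcf15* and *Socs3*. Missing the threshold at another time does not show that the difference changed, and that was tested separately below. In WT cells 12 of the 34 higher genes had risen and 7 had fallen from ESCs to 24 h, where 7.55% of all genes rose and 7.46% fell. Of the 34 lower genes, 4 had risen and 16 had fallen. *Cpt1a*, *Apoe*, *Fabp3*, *Tdh*, *Tcl1*, *Socs3* and *Fxyd6* were among those that fell in WT as cells left the ESC state and were lower still in KO at 48 h.

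**Figure D3:**
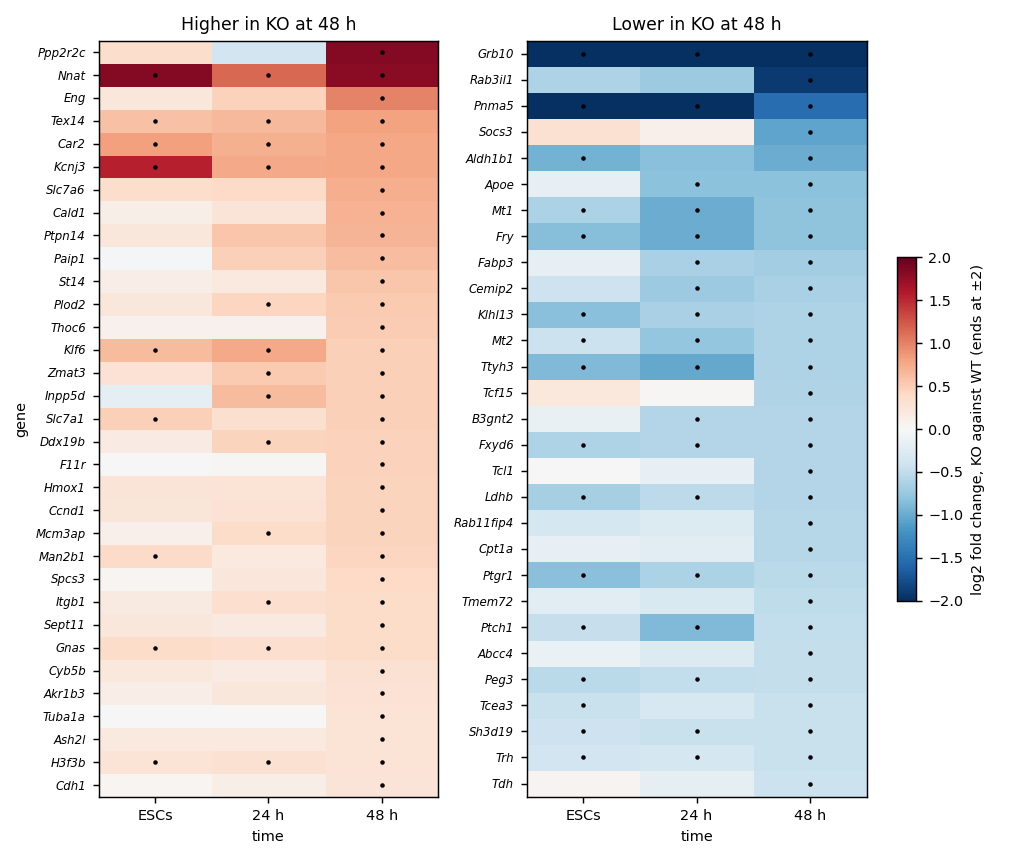
Log2 fold change (KO against WT, colour, ends at ±2) in ESCs, at 24 h and at 48 h for the genes called at 48 h, 33 higher (left) and 29 lower (right), leaving out gene models with Gm names, with a dot where a gene was called at that time. Colours of 1 sign run across most rows. *Ppp2r2c* and *Tuba1a* (-0.01) on the left and *Socs3* and *Tcf15* on the right have the opposite sign at 24 h.

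The difference itself changed with time for few genes. Against ESCs, 7 genes outside the stretch were called for a change of the genotype difference by 48 h (0.0406%), and against 24 h 4 were (0.0232%). Of these only *Tdh* and *Gm7332* were also called at 48 h. *Otx2* was at 51.7 and 55.5 CPM in WT ESCs and 29.9 and 25.6 CPM in KO ESCs, and the genotypes overlapped at 48 h (log2 change of the difference 1.04 ± 0.13, adjusted p = 0.00242). *Grhl2*, an epithelial transcription factor, was at 19.6 and 19.7 CPM in WT ESCs against 8.90 and 7.81 CPM in KO ESCs, and at 109 CPM in both WT libraries against 105 and 117 CPM in KO at 48 h (1.26 ± 0.15, adjusted p = 0.00157). *Lef1*, a partner of β-catenin in Wnt signalling, went from 4.61 and 3.09 CPM against 0.730 and 1.16 CPM to 47.6 and 60.8 CPM against 66.3 and 58.6 CPM (2.23 ± 0.33, adjusted p = 0.00905). All 3 were called lower in KO ESCs, and none was called in spheroids at 48 h.

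*Lin28a*, an RNA-binding protein of pluripotent cells (0.63 ± 0.092), *Enpp3* (0.84 ± 0.15) and *Dnmt3l*, a cofactor of DNA methyltransferases (0.70 ± 0.11), were also called lower in KO ESCs and not called at 48 h, where *Dnmt3l* was at 203 and 192 CPM in WT and 233 and 243 CPM in KO. *Tdh* went the other way (-0.49 ± 0.087, adjusted p = 0.0487), with no difference called in ESCs and a fall at 48 h. Against 24 h, the Nodal inhibitor *Lefty1* changed from 23.4 and 20.8 CPM in WT and 8.49 and 8.38 CPM in KO to 93.8 and 85.7 CPM and 69.8 and 75.6 CPM at 48 h (1.08 ± 0.17, adjusted p = 0.0252). *Wt1*, a zinc finger factor, changed from 11.9 and 8.35 CPM against 2.34 and 1.76 CPM to 30.3 and 30.8 CPM against 26.4 and 24.6 CPM (2.04 ± 0.34, adjusted p = 0.0356). With average transcript lengths as offsets none of these 11 genes kept its call, 2 other genes were called against ESCs, and 0 were called against 24 h (857 at an unadjusted p under 0.05). Without replicate 1 of KO spheroids at 24 h there were 57 and 29. Against 24 h, 0 genes were called without WT replicate 1 at 48 h (613 at an unadjusted p under 0.05) and 0 without WT replicate 2 (918), and against ESCs 4 were called without WT replicate 2.

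**Figure D4:**
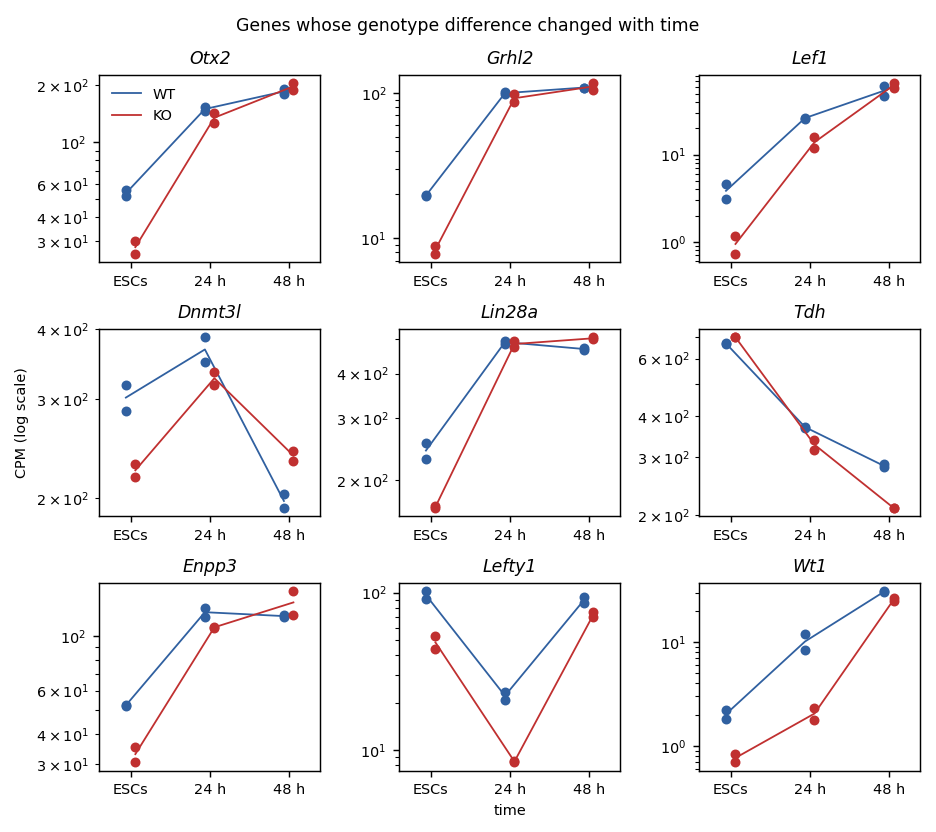
CPM (log scale) by time for 9 of the 11 genes whose genotype difference changed with time, with 1 point per library, lines through the group means, WT in blue and KO in red. *Otx2*, *Grhl2* and *Lef1* start apart and overlap at 48 h. *Wt1* and *Lin28a* start apart and lie closer at 48 h without overlap, *Lin28a* with KO above WT. *Tdh* starts together and parts by 48 h.

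The called genes were on 13 chromosomes on the higher side and 14 on the lower, and chromosome 8 held more of the higher genes than any other. Of its 896 tested genes 9 were called higher (1.0%, against 0.197% outside the stretch as a whole): *Slc7a6*, *Ddx19b*, *Hmox1*, *Man2b1*, *Spcs3*, *Itgb1*, *Cyb5b*, *Ash2l* and *Cdh1*. *Mt1* and *Mt2* on the same chromosome were lower. The median over expressed genes of chromosome 8 was 0.053 at 48 h, with 61.4% above 0, while the medians of the other chromosomes lay between -0.012 and 0.036, with 48.0% to 57.0% above 0. The chromosome had the highest median at 24 h (0.055) and in ESCs (0.079) too, where the others reached at most 0.035 and 0.027. Within 1 Mb of *Cdh1*, 54 genes were tested, and of the 44 expressed ones 30 were above 0, with a median of 0.06. The calls there were *Cdh1*, *Slc7a6* and *Cyb5b*. The part of this chromosome-wide shift in the rises of *Cdh1*, *Itgb1* and the other 7 genes was not tested. With scaling factors computed without chromosome 8 and the stretch, 32 higher and 34 lower genes were called, and the calls lost were *Cdh1* and *Paip1*.

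**Figure D5:**
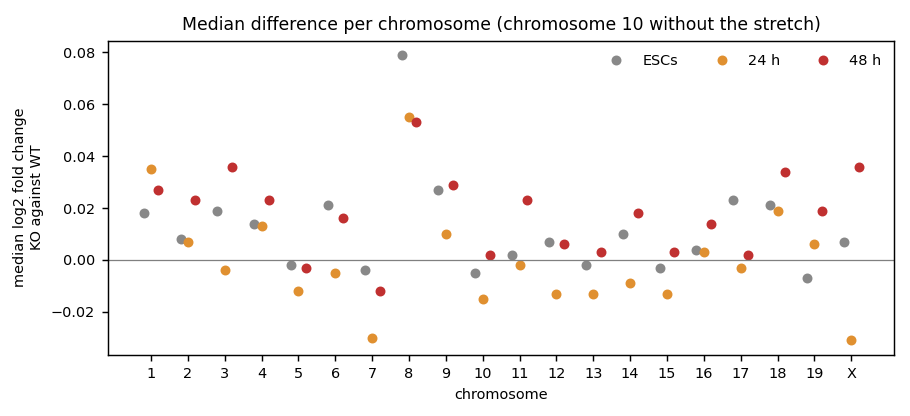
Median log2 fold change (KO against WT) of expressed genes per chromosome in ESCs (grey), at 24 h (orange) and at 48 h (red), with chromosome 10 shown without its stretch. Chromosome 8 lies at 0.053 to 0.079 at the 3 times, and no other chromosome passes 0.036.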

How the data were processed

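mRNA libraries (TruSeq Stranded) were sequenced on Illumina HiSeq. The authors trimmed reads with Trimmomatic 0.33 after FastQC and quantified transcripts with kallisto 0.43.1. The deposited estimated counts are not scaled for depth and need not be whole. The deposited TPM values are those counts divided by effective length and scaled per library by kallisto, and were used in alternatives only. Per the labels the build was GRCm38 (mm10). The transcript release and the authors' test are not given in the sources used here.

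Of 115270 transcripts, 98.5% matched GENCODE M21 (GRCm38) by identifier, and unmatched ones held 0.659% to 0.709% of the counts. Estimated counts were summed over 35580 genes, rounded and tested by quasi-likelihood in edgeR (version 4.0.16, R 4.3.3). TMM scaling, filterByExpr and robust dispersions were used, with 1 mean for each of 6 groups. Contrasts were KO against WT at 48 h and the change of that difference from ESCs or 24 h. Depth was 29.0 to 38.5 M. Medians per chromosome and per list used the fitted log2 fold changes, and expressed genes had a mean log2 CPM no lower than 1. The test was run on simulated data first.

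Named genes are the 15 highest and 15 lowest called log2 fold changes outside the stretch (the same CPM limit, groups not overlapping), called members of the gene lists, up to 4 members per list by p, genes called for a change with time, and genes the study stains or measures. Other named calls were chosen after their values were seen. Members and lists were chosen with earlier results of these data known. Alternatives were DESeq2 1.42.0, its size factors in edgeR, other filters, only 48 h libraries, length offsets, limma 3.58.1 on TPM, a replicate block, leaving out libraries, a threshold of 0.01 and, chosen after seeing the data, TMM without chromosome 8, together with the filters, the leave-out fits and limma for the change with time.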

Additional observations from a re-analysis of the deposited data

Results flagged for a closer look

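The genotype difference at 48 h departed from that in ESCs for 7 genes and from that at 24 h for 4, in an edgeR quasi-likelihood test of the change itself (Benjamini-Hochberg adjusted). Against ESCs the log2 change was 2.23 for *Lef1*, 1.26 for *Grhl2*, 1.04 for *Otx2*, 0.84 for *Enpp3*, 0.70 for *Dnmt3l*, 0.63 for *Lin28a* and -0.49 for *Tdh*. DESeq2 gave 1.25 for *Grhl2* and 1.04 for *Otx2*, both with an adjusted p of 7.8e-10, and with average transcript lengths as offsets their adjusted p was 0.432 and 0.0965. *Grhl2* and *Otx2* kept their call in 11 of 14 alternatives, *Dnmt3l*, *Lef1* and *Lin28a* in 10, *Enpp3* in 6 and *Tdh* in 5. Without replicate 1 of KO spheroids at 24 h all 7 were called.

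Against 24 h the log2 change was 2.04 for *Wt1*, 1.08 for *Lefty1*, 9.31 for *Tgtp1* and 19.46 for *Gm7332*. *Lefty1* kept its call in 7 of 14 alternatives and *Wt1* in 5. *Tgtp1*, an interferon-induced GTPase with close paralogs, was at 0 in both KO libraries at 24 h and at 6.56 and 3.78 CPM at 48 h, against 3.75 and 3.07 CPM and then 6.38 and 7.92 CPM in WT. The fitted values of *Tgtp1* and *Gm7332* depend on how zeros are treated, so they are no measure of size. *Gm7332* was at 0 in both KO libraries at 24 h and in both WT libraries at 48 h, and it lost its call without replicate 1 of KO spheroids at 24 h (adjusted p = 0.18).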

How the results depend on the processing

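Main counts were 34 higher and 34 lower genes at 48 h, 4 genes whose difference changed from 24 h and 7 from ESCs. For the higher and lower genes in turn, a threshold of 0.01 gave 7 and 11, DESeq2 80 and 91, no filter on low counts 95 and 140, average transcript lengths as offsets 1 and 8, limma on log2(TPM + 1) 1 and 15, and limma on log2(TPM + 0.1) 3 and 12. With only the 48 h libraries in the fit 44 and 70 were called. Leaving out 1 library gave 6 to 77 and 11 to 116, where the highest counts were without replicate 1 of KO spheroids at 24 h. For the changes from 24 h and from ESCs in turn, DESeq2 gave 19 and 72, no filter 96 and 123, offsets 0 (857 at an unadjusted p under 0.05) and 2, limma on log2(TPM + 1) 0 and 0 (960 and 931 unadjusted), limma on log2(TPM + 0.1) 1 and 0 (872 unadjusted), and leaving out 1 library 0 to 29 and 4 to 57. At least 10 counts in every 48 h library left 1 of the 4. Where leaving out a library left a group with 1 library, that library was assumed to vary like the other groups. Libraries that share a replicate number did not deviate together (correlation of their deviations -0.00937), so the main comparison has no replicate block. With the replicate block 34 and 32 genes were called at 48 h, 31 and 28 of them shared, and 5 and 10 for the changes with time.

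DESeq2's size factors in edgeR (30 and 38), at least 10 counts (27 and 33) and TMM without chromosome 8 (32 and 34) stayed within 1.5 times. Of 1165 values of single genes, 740 kept direction and side of the threshold, 415 lost the call, 5 gained it and 5 changed sign. Those 5 were values near 0: *Pard3* at -0.00024 with DESeq2, -0.0014 with at least 10 counts and -0.03 to 0.05 with 1 library left out, *Pnpla2* at -0.26 to 0.07 and *Plin2* at -0.11 to 0.08 with 1 library left out. The cause of these changes was not tested. Depth limits genes of few counts at 48 h, such as *Cidea* (20 and 21 counts in WT, 0 in KO) and *Socs3* (116 and 118 in WT, 51 and 63 in KO).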
